A study of Mus musculus with 4 samples.

Results

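The genes described are 40 nuclear genes that encode subunits of the 5 oxidative phosphorylation complexes, taken by symbol from the 31053 genes of the feature table. The rule uses no measured value, but the list was drawn up with earlier results of these data known. They comprise 15 genes of complex I (the Ndufa, Ndufb, Ndufc and Ndufs symbols), 2 of complex II (Sdhb, Sdhd), 5 of complex III (Uqcrh, Uqcrq, Uqcr10, Uqcr11, Uqcrb), 10 of complex IV (Cox4i1 to Cox8a) and 8 of complex V (the Atp5 symbols). All 40 passed the minimum of 10 CPM (UMIs of a gene per 1000000 UMIs of the same cells) in the mean of the 4 libraries in each lineage and fit below. Small cell lung cancer (SCLC) cells of mouse origin were placed orthotopically in mouse lung, and the digested whole lungs gave live cells sorted on DAPI for droplet-based 3′ RNA counting. One group received vehicle with isotype IgG (control), one received anti-PD-1 antibody of clone 29F.1A12 at 200 µg per mouse 3 times a week, one received the CDK7 inhibitor YKL-5-124 at 10 mg/kg on weekdays, and the last received both agents (combination). The labels give neither the strain, age or genotype of the mice nor the number of animals per library, and each group has 1 library.

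Complexes I to IV pass electrons to oxygen, and complexes I, III and IV pump protons across the inner mitochondrial membrane. Complex V, the ATP synthase, uses the resulting gradient to make ATP. A few core subunits of complexes I, III, IV and V come from the mitochondrial genome and all others, including all of complex II, from nuclear genes whose products are imported. The factors NRF1, GABPA and YY1 are known to bind many of their promoters, and PGC-1 coactivators (Ppargc1a, Ppargc1b) are known to raise their transcription.

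Kept barcodes had 500 or more unique molecular identifiers (UMIs), 300 or more genes and no more than 10% of UMIs from the mitochondrial genome. They numbered 2736 to 4152 per library, from library totals of 17329001 to 22950622 UMIs. Marker genes gated them to 6 lineages: tumour (721 to 900 barcodes per library), T cells (472 to 900), NK cells (249 to 360), B cells (397 to 636), monocytes or macrophages (157 to 511) and neutrophils (84 to 677). In the tumour gate the 11 neuroendocrine and epithelial tumour markers summed to 4997 to 5804 CPM and no other list passed 135 CPM, which the gate itself selects for and which is no test of the label mouse SCLC. Of 12818 distinct barcodes kept, 658 were kept in at least 2 libraries and 450 in all 4. In 1512 cases the barcode held under 10% of the UMIs of the same barcode in another library. These barcodes are called copies here, and they had a median of 2.40% of those UMIs. The tumour gate held 997 copies, and each of them had a tumour-gated deepest counterpart. A further 490 copies were in no gate and other gates held 25 in all, so results on tumour barcodes are given with and without copies. What produced the copies was not tested.

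Short motifs of the factors named above were searched on both strands of RefSeq promoter windows (build GRCm38.p6, 250 bases before to 50 after each start), available for 33 of the 40 genes. The NRF1 core GCATGCGC was found for 6 genes (18.2%, against 3.05% of the 27025 genes with a window). The GABPA or ETS motif CCGGAAG was found for 13 (39.4%, against 9.93%) and the YY1 motif AAGATGGC for 4 (12.1%, against 3.19%). At least 1 of them was found for 17 genes (51.5%, against 14.9%). The windows of the 40 genes had a median GC content of 56.2%, against 52.4% for all windows, and these shares were not adjusted for it. Below are exon-free stretches upstream of 5 genes that the results turn on and of Uqcr11, each 5′ to 3′ on the gene's strand, with motif matches in capitals: Cox7a2 (chr9:79759879-79759973, minus strand) was the furthest above the other lineages in tumour cells, Ndufa6 (chr15:82354323-82354411, minus) the furthest below, Atp5e (chr2:174464106-174464221, minus) and Uqcrh (chr4:116075072-116075190, minus) also lay below, Sdhd (chr9:50603850-50603969, minus) moved most in B cells of treated libraries, and Uqcr11 (chr10:80406831-80406941, minus) is shown as another complex III gene.
Cox7a2: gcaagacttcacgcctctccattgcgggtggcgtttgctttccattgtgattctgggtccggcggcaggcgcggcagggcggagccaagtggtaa
Ndufa6: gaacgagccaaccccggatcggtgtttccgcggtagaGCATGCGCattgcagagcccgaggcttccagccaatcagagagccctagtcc
Atp5e: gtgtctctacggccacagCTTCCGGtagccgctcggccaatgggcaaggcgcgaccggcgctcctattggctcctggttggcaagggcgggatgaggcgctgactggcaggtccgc
Uqcrh: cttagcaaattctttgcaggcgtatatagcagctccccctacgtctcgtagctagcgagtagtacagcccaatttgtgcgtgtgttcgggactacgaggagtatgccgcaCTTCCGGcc
Sdhd: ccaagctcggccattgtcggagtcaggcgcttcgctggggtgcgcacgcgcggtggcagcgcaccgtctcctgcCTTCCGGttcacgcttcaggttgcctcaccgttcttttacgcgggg
Uqcr11: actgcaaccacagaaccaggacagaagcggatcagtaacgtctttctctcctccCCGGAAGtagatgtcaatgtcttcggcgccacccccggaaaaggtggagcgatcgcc
Ndufa6 carried the NRF1 core, Atp5e, Uqcrh, Sdhd and Uqcr11 an ETS motif, and the Cox7a2 stretch none of the 3 motifs. Every exon-free stretch with a match that was long enough to show is among them. Most stretches without a match are not shown, so matches are over-represented here. A match is a description of letters and not a binding site.

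The 40 genes together made up a larger share of RNA in tumour cells than in any immune lineage. Their share of all UMIs in tumour cells was 3.14% in control, 3.1% for anti-PD-1, 2.93% for YKL-5-124 and 3.16% for both agents (2.93% to 3.18% without copies). It was 1.70% to 1.88% in monocytes or macrophages, 1.76% to 1.88% in NK cells, 1.52% to 1.76% in T cells, 1.22% to 1.36% in B cells and 0.980% to 1.12% in neutrophils. The tumour libraries lay above every immune value, and the B cell and neutrophil ranges overlapped no other, whereas monocytes or macrophages overlapped both NK and T cells. The highest T cell value lay just under the lowest NK cell value. Free RNA, read from barcodes of 10 to 100 UMIs, held 1.78% to 2.05%. Its part in the lineage values was not tested.

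The 13 protein genes of the mitochondrial genome, which encode the partner subunits, followed another order. They held 2.56% to 2.92% of UMIs in B cells and 2.28% to 2.47% in T cells, against 1.89% to 2.03% in tumour cells, 1.46% to 1.62% in monocytes or macrophages and 1.40% to 1.56% in NK cells. Neutrophils had 1.25% and 1.49% in the control and anti-PD-1 libraries and 0.793% and 0.784% in the YKL-5-124 and combination libraries. Tumour cells thus held 1.54 to 1.64 UMIs of the 40 nuclear genes per mitochondrial protein gene UMI, NK cells 1.21 to 1.29, monocytes or macrophages 1.13 to 1.27, T cells 0.668 to 0.711 and B cells 0.462 to 0.477. Neutrophils had the widest range, 0.720 to 1.29, which overlapped NK cells and monocytes or macrophages. The limit of 10% mitochondrial UMIs caps the denominator of this ratio. Ribosomal protein genes, another group of short abundant messages, were at 11.4% to 13.6% of UMIs in tumour cells and 27.9% to 33.7% in T cells.

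**Figure D1:**
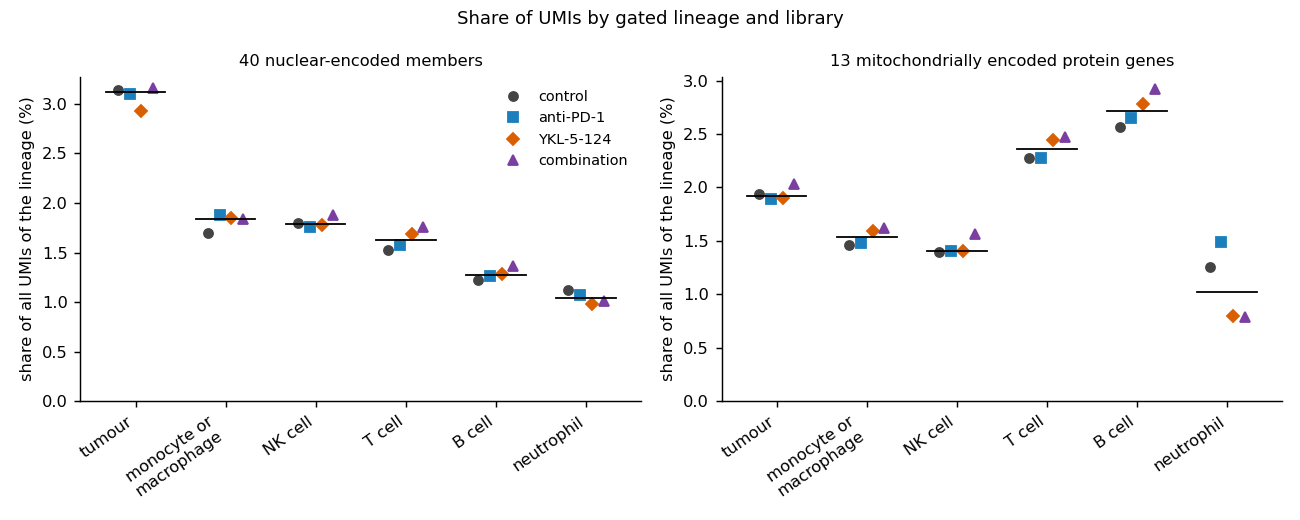
Share of all UMIs (%) of the 40 nuclear genes and of the mitochondrial protein genes in each gated lineage, 1 point per library. The nuclear genes are highest in tumour cells (2.93% to 3.16%), and the mitochondrial protein genes are highest in B cells (2.56% to 2.92%).

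Each complex contributed to the tumour level. The median over libraries of the summed share of complex I genes was 0.748% in tumour cells, and the highest immune median was 0.433%, in monocytes or macrophages. For complex II these were 0.0930% and 0.0431%, for complex III 0.406% and 0.227%, and for complex IV 1.13% and 0.691%. For complex V the tumour median was 0.742% and the highest immune median 0.461%, in NK cells.

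Summed counts per lineage and library were compared with edgeR's quasi-likelihood test, with the library as a block, each lineage against the mean of the other 5 over 7847 genes. No label says that the libraries come from separate animals or cultures of 1 group, and they differ in treatment, so the p-values measure only the spread between these libraries. In tumour cells 30 of the 40 genes were higher and 4 lower at an adjusted p of at most 0.05, and the same 2 counts held without copies. Of all genes, 44.5% were called higher and 39.0% lower. The median log2 difference was 0.57 for the 40 genes and 0.08 for all genes. Without scaling factors 39 were higher and 0 lower, where the median of all genes moved to 0.83 and that of the 40 genes to 1.28. DESeq2 called 35 higher and 1 lower.

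Of complex I genes 11 of 15 were higher in tumour cells and 1 was lower, of complex II both were higher, of complex III 4 of 5 were higher and 1 lower. Complex IV had 6 of 10 higher and 1 lower, and complex V 7 of 8 higher and 1 lower.

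Cox7a2, a small subunit of complex IV, stood furthest above. It had 1957, 1904, 1794 and 1954 CPM in tumour cells of the control, anti-PD-1, YKL-5-124 and combination libraries, and its immune values ran from 280 CPM to 564 CPM. Its groups did not overlap, and the log2 difference was 1.67 ± 0.09 (SE, edgeR adjusted p = 3.3e-18). Ndufs5, an accessory subunit of complex I, had 606, 620, 569 and 610 CPM in tumour cells in the same order, and no immune value above 189 CPM. Its log2 difference was 1.35 ± 0.09 (edgeR adjusted p = 1.2e-14). Ndufa5, another accessory subunit of complex I, had 447, 446, 403 and 450 CPM in tumour cells and at most 201 CPM in immune cells, in the combination NK cells. Its log2 difference was 1.33 ± 0.09 (edgeR adjusted p = 1.8e-14). In neutrophils Ndufa5 was at 17.5 to 46.3 CPM.

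The lower genes were 1 each of complexes I, III, IV and V. Ndufa6, an accessory subunit of complex I, had 343, 356, 327 and 343 CPM in tumour cells against 398 to 488 CPM in T cells and 449 to 555 CPM in monocytes or macrophages. All 4 tumour values lay below these 2 lineages and above the neutrophil value of the same library. Its log2 difference was -0.82 ± 0.10 (edgeR adjusted p = 2.1e-09). Cox4i1, the widely used form of a nuclear complex IV subunit, had 1312, 1304, 1229 and 1279 CPM in tumour cells and 1255 to 1574 CPM in monocytes or macrophages, so that these ranges overlapped. Its log2 difference was -0.30 ± 0.10 (edgeR adjusted p = 0.005). Atp5e, the epsilon subunit of ATP synthase, was at -0.27 ± 0.08 (edgeR adjusted p = 0.0031), and Uqcrh, the hinge protein of complex III, at -0.24 ± 0.10 (edgeR adjusted p = 0.027). Uqcrh was not past the threshold when the control (-0.25), anti-PD-1 (-0.23) or YKL-5-124 library (-0.19) was left out. Without scaling factors Cox4i1, Atp5e and Uqcrh turned to 0.39, 0.43 and 0.47, so their direction depends on how tumour libraries are scaled, while Ndufa6 stayed below 0 at -0.12 but was not past the threshold (edgeR adjusted p = 0.17).

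**Figure D2:**
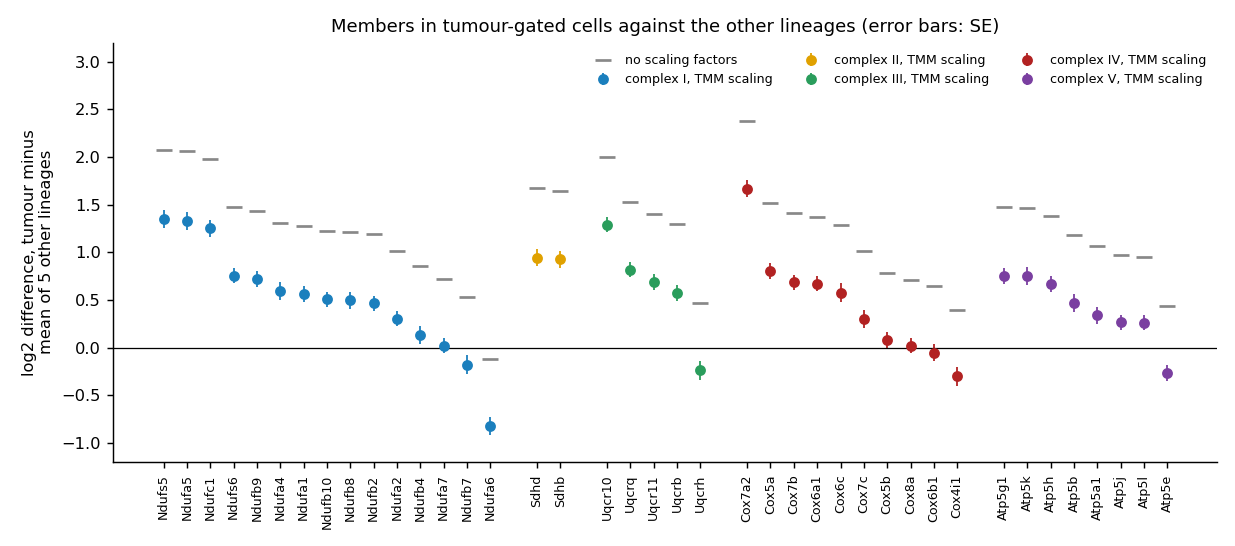
Log2 difference of each of the 40 genes between tumour cells and the mean of the 5 other lineages, grouped by complex, with SE bars and the values without scaling factors. Cox7a2 is highest at 1.67 and Ndufa6 lowest at -0.82.

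In monocytes or macrophages 26 of the 40 genes were higher and 0 lower than the mean of the other lineages by edgeR (33.7% and 26.9% of all genes), with a median log2 difference of 0.36 against 0.01 for all genes. Without scaling factors the split was 20 and 5, and with DESeq2 21 and 5. Ndufb8, a subunit of complex I, had 368 to 387 CPM there and 89.7 to 287 CPM in the other immune lineages, with a log2 difference of 0.81. Cox5a, a complex IV subunit, had 567 to 645 CPM and a log2 difference of 0.74, and Cox4i1 followed at 0.68. Cox7a2 (-0.19), Ndufa5 (-0.13) and Ndufs5 (-0.07), which led in tumour cells, had the lowest values here and were not past the threshold. They were past it as lower genes without scaling factors (-0.38, -0.29 and -0.24) and with DESeq2 (-0.37, -0.28 and -0.23), and Cox7a2 also without the anti-PD-1 library (-0.29).

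B cells were the opposite, with 0 of the 40 genes higher and 32 lower by edgeR (30.0% and 23.8% of all genes). The median log2 difference was -0.39, against 0.02 for all genes. The count of 32 was 33 without scaling factors and 33 with DESeq2, which called 1 gene higher. All 10 complex IV genes were lower, both complex II genes, 12 of complex I, 4 of complex III and 4 of complex V. Ndufa1, a small subunit of complex I, had 139 to 177 CPM in B cells and 225 to 349 CPM in T and NK cells, a log2 difference of -0.86. Uqcrq, a small subunit of complex III, was at -0.74 and Cox7a2 at -0.71. The alpha subunit of ATP synthase, Atp5a1, was the highest at 0.17, followed by Ndufa6 (0.14) and Uqcrh (0.12), none past the threshold. In the same cells 12 of 12 mitochondrial protein genes tested were higher, with mt-Nd1 at 1.1 on the log2 scale, as were 81 of 82 ribosomal protein genes.

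T cells had 4 of the 40 genes higher and 12 lower by edgeR (30.6% and 21.7% of all genes), with a median log2 difference of -0.14. The split was 9 and 11 without scaling factors and 8 and 16 with DESeq2, and the 12 lower became 7 without the control library and 6 without the combination library. Uqcrh was highest at 0.41, with 772 to 819 CPM. Atp5b and Atp5a1, the beta and alpha subunits that form the catalytic head of ATP synthase, followed at 0.37 and 0.32. Cox7a2 (-0.50), Ndufs5 (-0.45) and Sdhd (-0.43), the last a membrane anchor of complex II, were lowest. All 12 mitochondrial protein genes tested were higher in T cells too, and so were 80 of 82 ribosomal protein genes.

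NK cells had 6 higher and 8 lower (23.7% and 19.4% of all genes, edgeR) and a median of -0.01. The split was 15 and 3 without scaling factors and 10 and 11 with DESeq2, so it has no settled direction. The 6 higher became 1 without the control library, 3 without anti-PD-1 and 1 without the combination, and the 8 lower became 4 without anti-PD-1 and 5 without each other library in turn. Ndufa4, named as a complex I subunit and known to associate with complex IV, was the highest member. It had 823 to 907 CPM in NK cells and 552 to 696 CPM in T cells, which did not overlap, with a log2 difference of 0.67 (edgeR adjusted p = 1.3e-06). Ndufa5 (0.37) and Atp5h (0.28), a stalk subunit of ATP synthase, came next. Ndufc1 (-0.46), Ndufa7 (-0.46) and Uqcr10 (-0.43) were lowest.

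Neutrophils had 5 higher and 19 lower (28.1% and 32.5% of all genes, edgeR). Their median of -0.23 was close to that of all genes, -0.22. The 5 higher became 3 without the YKL-5-124 library. Without scaling factors 0 were higher and 37 lower, the median of all genes then being -1.0 and that of the 40 genes -0.87. Atp5g1, which encodes the c subunit of the ATP synthase ring, had 56.9 to 92.1 CPM in neutrophils and 237 to 392 CPM in the other immune lineages. The groups did not overlap, and its log2 difference was -1.66. Ndufa5 (-1.40) and Atp5a1 (-1.37) followed. Ndufa7 (0.65), Ndufb9 (0.43) and Atp5l (0.41) were highest, and the last 2 turned to -0.21 and -0.13 without scaling factors. Neutrophils numbered 84 to 677 per library at median depths of 955.5 to 1605 UMIs.

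Other genes of the pathway were read from lists. Of 38 further nuclear subunits, 27 were higher and 5 lower in tumour cells by edgeR, led by Ndufab1 (1.5) and Ndufc2 (1.45), with Ndufa3 (-1.11) and Cox7a2l (-1.02) lowest. Of 22 assembly factors tested, 12 were higher and 9 lower. Ndufaf2 and Ndufaf4, assembly factors of complex I, were at 2.17 and 1.73, and Coa5 and Cox16, both of complex IV, at -2.17 and -1.67. Of 12 mitochondrial protein genes tested, 1 was higher (mt-Atp8, 0.67) and 7 lower, mt-Nd1 at -0.94. Ribosomal protein genes had 2 of 82 higher and 74 lower.

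Cox6a2 and Atpif1 lay further above the other lineages in tumour cells than Cox7a2, the highest of the 40. Cox6a2, known as the heart and muscle form of a complex IV subunit whose general form is Cox6a1, had 491, 427, 274 and 276 CPM in tumour cells of the control, anti-PD-1, YKL-5-124 and combination libraries. It had at most 20.6 CPM in any immune lineage, on 14 UMIs or fewer in B, T, NK cells and neutrophils and 17 UMIs or fewer in monocytes or macrophages. Its log2 difference was 5.77 ± 0.15 (edgeR adjusted p = 2.6e-26). Other tissue forms were low or listed at 0 in tumour cells: Cox6b2 had 18.5 to 26.8 CPM, Cox7a1 and Cox4i2 at most 2.41 CPM, and Cox8b no UMI in any lineage. Atpif1, the inhibitor of ATP hydrolysis by ATP synthase, had 1735, 1721, 1632 and 1815 CPM in tumour cells and 123 to 281 CPM elsewhere, a log2 difference of 2.66 ± 0.09 (edgeR adjusted p = 1.2e-23).

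Of the regulators, Nrf1, Gabpa and Tfam differed less in tumour cells than Cox6a2 and Atpif1. Nrf1 (-0.31 ± 0.09, edgeR adjusted p = 0.0022) and Gabpa (-0.43 ± 0.13, edgeR adjusted p = 0.0033) were lower in tumour cells. Tfam, which packages and transcribes mitochondrial DNA, was higher there (0.52 ± 0.13, edgeR adjusted p = 0.00038) and highest in B cells (2.21 ± 0.13, edgeR adjusted p = 5.8e-16), with 97.8 to 136 CPM against 63.8 to 70.6 CPM in tumour cells. Neutrophils had 6 Tfam UMIs in all. Ppargc1a had 8.23 to 11.8 CPM in tumour cells and no UMI in T cells, monocytes or macrophages and neutrophils, and Ppargc1b and Esrra stayed under 10 CPM in tumour, T, NK and B cells.

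**Figure D3:**
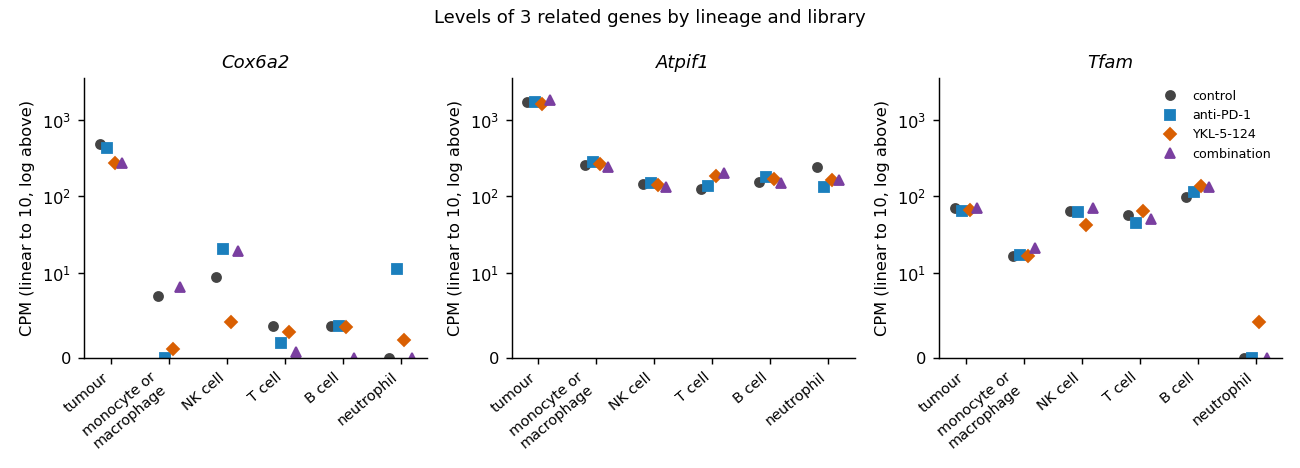
CPM of Cox6a2, Atpif1 and Tfam by lineage, 1 point per library, on an axis that is linear to 10 CPM and logarithmic above. Cox6a2 and Atpif1 lie far above the immune lineages in tumour cells, and Tfam is highest in B cells.

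Shallow tumour barcodes appeared to hold less of the 40 genes. Their summed share was 2.34% to 2.55% in barcodes of 500 to under 1000 UMIs and 2.55% to 2.74% at 1000 to under 2000 UMIs. It was 2.87% to 3.0% at 2000 to under 5000 UMIs and 3.0% to 3.06% at 5000 to under 10000 UMIs. At 10000 to under 20000 UMIs it was 2.77% to 3.05%, and at 20000 UMIs and more 2.97% to 3.27%. The share therefore did not rise with every step in depth. An edgeR fit compared the mean of the ranges from 10000 UMIs with that of the ranges under 2000 UMIs. In it 22 of the 40 genes were higher in deep barcodes and 6 lower (6.33% and 6.07% of 8959 genes), with a median log2 difference of 0.29 against 0.05 for all genes. Atp5k (1.38), Ndufa1 (0.93) and Cox7c (0.87) were highest, and Cox5a (-0.53), Ndufb9 (-0.23) and Ndufb10 (-0.23) lowest. The 6 lower became 2 without the YKL-5-124 library and 1 with the gate of 5 UMIs and 5 times, where neither Ndufb9 nor Ndufb10 was past the threshold. Ndufb10 also lost its call without the control or the combination library.

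The difference lay at under 2000 UMIs. With ranges from 2000 UMIs only, so that barcodes from 10000 UMIs were set against those of 2000 to under 10000, 4 genes were higher and 1 lower (3.82% and 3.69% of 8982 genes), with a median log2 difference of 0.01. Copies had little part in that comparison, since 27 of the 2053 barcodes from 2000 UMIs were copies, and without them 4 genes were higher and 2 lower (4.53% and 4.06% of 8980 genes). Cox5a was then at 0.28 ± 0.04 (edgeR adjusted p = 2e-06), followed by Sdhb (0.19), Atp5b (0.12) and Atp5l (0.12), and Atp5k was at -0.16 ± 0.05 (edgeR adjusted p = 0.019). Cox6a1 was the other lower gene (-0.14). Leaving out the control library as well gave 2 higher and 2 lower, and leaving out YKL-5-124 or the combination gave 1 lower. Among the same barcodes 8 of 13 mitochondrial protein genes were lower in deep ranges and 1 higher, with a median of -0.36.

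Of the 1074 tumour barcodes under 2000 UMIs, 970 (90.3%) were copies, which left 43, 18, 27 and 16 barcodes in the control, anti-PD-1, YKL-5-124 and combination libraries. The 40 genes held 2.72% (2.59% to 2.85%), 1.97% (1.80% to 2.15%), 2.46% (2.31% to 2.63%) and 2.84% (2.63% to 3.07%) of the UMIs of those that were left, with exact 95% binomial intervals. The anti-PD-1 value was the lowest, and its interval lay below the others, while the YKL-5-124 interval overlapped those of control and combination, which also overlapped each other. These intervals cover counting error only and not the spread between barcodes. At 1000 to under 2000 UMIs the quartiles per barcode overlapped: 1.20% to 2.44% in anti-PD-1 and 1.93% to 3.43% in control. They were 1.74% to 2.90% in YKL-5-124 and 2.13% to 3.19% in the combination. With barcodes under 2000 UMIs as 1 shallow range, 22 genes were higher and 7 lower with copies (5.46% and 6.69% of 8974 genes). Without copies 21 were higher and 0 lower (5.18% and 0.581% of 9118 genes), with a median of 0.58 against 0.28 for all genes. So the summed direction was seen with and without copies, but on few barcodes without them and with other values for single genes. The barcodes also differed in mitochondrial RNA. At 1000 to under 2000 UMIs the 40 genes held 1.06 to 1.31 UMIs per mitochondrial protein gene UMI with copies. Without copies this was 0.346 to 0.623, against 1.64 to 1.78 at 20000 UMIs and more. Whether the 2 results reflect the same pattern was not tested. Cox5a was at -0.53 with copies and 1.11 without, both past the threshold (edgeR adjusted p = 9.6e-11 and 2.5e-07), and Atp5k at 1.16 and 0.59 (edgeR adjusted p = 5.1e-15 and 0.0505, the latter not past the threshold). The copies held 2.62% of their UMIs in the 40 genes, and the same barcodes in the libraries where they were deepest held 3.21%.

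**Figure D4:**
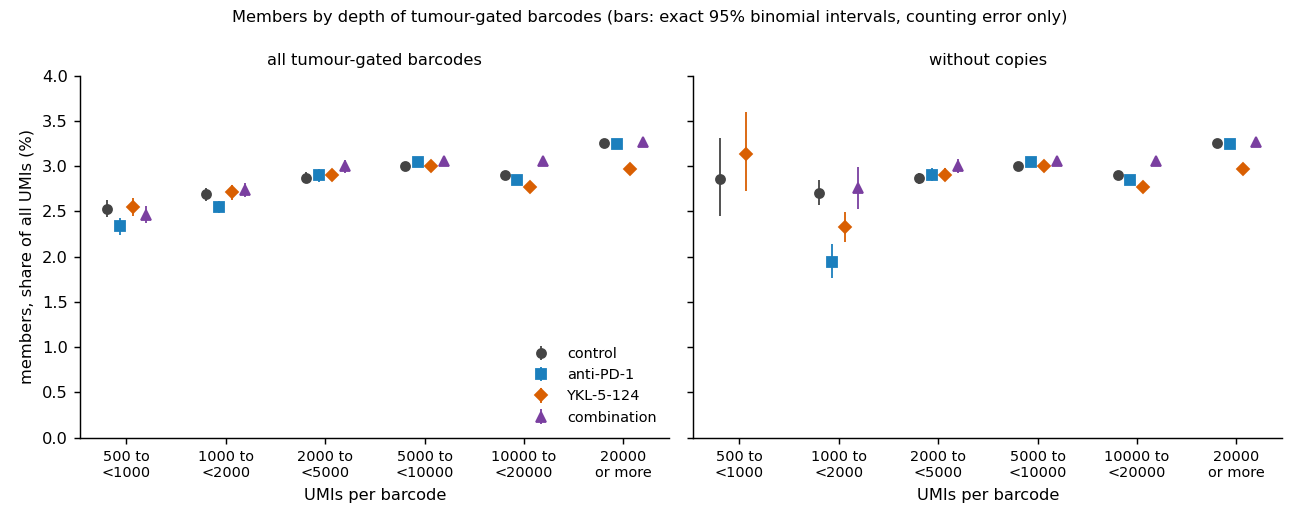
Share of UMIs (%) of the 40 genes against UMIs per tumour barcode, 1 point per library in each range, with exact 95% binomial intervals for counting error. Without copies, the range of 500 to under 1000 UMIs is not drawn for anti-PD-1 and the combination, which had 4 barcodes each. With copies the ranges under 2000 UMIs lie at 2.34% to 2.74%, below the deeper ones, and without copies these ranges together rest on 16 to 43 barcodes per library.

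Treated libraries were compared with control by ratios of CPM. With 1 library per group there is no test of a treatment, and the exact 95% intervals cover counting error only. A gene was counted as changed in size at 1.5-fold on CPM plus 10, and ratios named below are of plain CPM. Each value is a share of the summed UMIs of a gated lineage. A shift in the mix of cells within the lineage and a shift within cells cannot be told apart in it. The comparisons share the control library.

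In tumour cells none of the 40 genes passed 1.5-fold with anti-PD-1, YKL-5-124 or the combination, where 0.459%, 0.425% and 1.44% of all genes did. The summed ratio was 0.987 with anti-PD-1 (interval 0.982 to 0.992), 0.933 with YKL-5-124 (0.928 to 0.938) and 1.01 in the combination (1.00 to 1.01), and 1.08 for the combination against YKL-5-124 (1.07 to 1.09). Without copies these were 0.992, 0.932, 1.01 and 1.08. The combination ratio to control turned to 0.992 (0.987 to 0.997) with totals that left out mitochondrial and ribosomal protein UMIs and to 0.981 (0.956 to 1.01) in barcodes thinned to 500 UMIs. The anti-PD-1 ratio turned to 1.01 (0.980 to 1.04) when thinned without copies. With YKL-5-124 35 of the 40 genes lay below control, against 39.0% of all genes, and in the combination 38 lay above YKL-5-124, against 45.5%. Uqcrq went from 915 CPM in control to 753 CPM with YKL-5-124 (ratio 0.823), Ndufa2 from 669 CPM to 558 CPM (0.835), Ndufa1 from 573 CPM to 481 CPM (0.840) and Atp5k from 538 CPM to 453 CPM (0.842). With anti-PD-1 Atp5k was furthest from control at 622 CPM (ratio 1.16), then Ndufb4, Uqcrq and Uqcr10 at 0.932, 0.934 and 0.939. In the combination Ndufa4 was at 1202 CPM against 1033 CPM (ratio 1.16), followed by Ndufa2 (0.914), Uqcrq (0.921) and Atp5j (1.08).

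The lower YKL-5-124 value was seen in tumour barcodes of 10000 UMIs and more. The ratio to control was 1.01 at 2000 to under 5000 UMIs, 1.00 at 5000 to under 10000, 0.953 at 10000 to under 20000 and 0.911 (0.905 to 0.917) at 20000 and more. The median share per barcode in that deepest range was 3.09% in control, 3.07% under anti-PD-1, 2.91% under YKL-5-124 (quartiles 2.73% to 3.1%) and 3.18% under both (3.02% to 3.35%). Without barcodes shared between libraries, which removes 502 of the 524 deepest barcodes, the YKL-5-124 ratio was 0.984. Other genes moved beside it with YKL-5-124: the summed ratio was 0.839 for ribosomal protein genes, 0.972 for the other nuclear subunits and 0.979 for mitochondrial protein genes. With totals that left out mitochondrial and ribosomal protein UMIs the YKL-5-124 ratio was 0.909 (0.904 to 0.914) in all tumour cells. It was 0.885 (0.879 to 0.891) at 20000 UMIs and more. The part of these other genes in the lower value was not tested.

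Cox6a2 differed more than any of the 40. Its ratio to control in tumour cells was 0.558 (0.531 to 0.586) with YKL-5-124, 0.561 (0.533 to 0.590) in the combination and 0.869 (0.831 to 0.908) with anti-PD-1. Without copies these were 0.552, 0.554 and 0.876. It was 0.501 at 5000 to under 10000 UMIs, 0.653 at 10000 to under 20000 and 0.538 at 20000 and more with YKL-5-124, so the lower level held over these depths. The other gene of the pathway lists past 1.5-fold in tumour cells was Sdhaf1, an assembly factor of complex II, at 38.7 CPM in the combination and 20.9 CPM in control (ratio 1.85, 1.55 to 2.21). Atpif1 stayed at 0.941 with YKL-5-124 and 1.05 in the combination.

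T cells ran the other way. None of the 40 genes passed 1.5-fold with anti-PD-1, YKL-5-124 or the combination (4.49%, 8.21% and 9.62% of all genes). Their summed ratio to control was 1.03 (1.01 to 1.05), 1.11 (1.09 to 1.13) and 1.15 (1.14 to 1.17) in that order. Under YKL-5-124 33 genes lay above control, against 63.4% of all genes, and in the combination 35, against 60.7%. Sdhd went from 70.6 CPM in control to 103 CPM with YKL-5-124 (ratio 1.45) and 106 CPM in the combination (1.5). Atp5a1 (1.37), Atp5b (1.35) and Ndufb8 (1.33) followed with YKL-5-124, and Ndufb8 (1.36), Cox5b (1.33) and Ndufs6 (1.34) in the combination. With anti-PD-1 the furthest were Ndufb2 (1.25), Uqcr10 (1.23), Ndufa7 (1.19) and Cox7b (1.19).

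Genes of dividing cells moved with these T cell values. Mki67 was at 22.9, 40.9, 125 and 131 CPM in T cells, in the order of groups used above, Top2a at 59.5, 75.9, 253 and 212 CPM and Birc5 at 40.3, 43.5, 209 and 184 CPM. Without cells that had a UMI of any of these 3 genes the summed ratio was 1.03 with YKL-5-124 and 1.08 in the combination. Ribosomal protein genes held 33.7% of T cell UMIs in control and 27.9% and 28.4% in these 2 libraries. With totals that left out mitochondrial and ribosomal protein UMIs the ratios were 1.02 and 1.07, and in cells thinned to 500 UMIs 1.01 and 1.08.

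**Figure D5:**
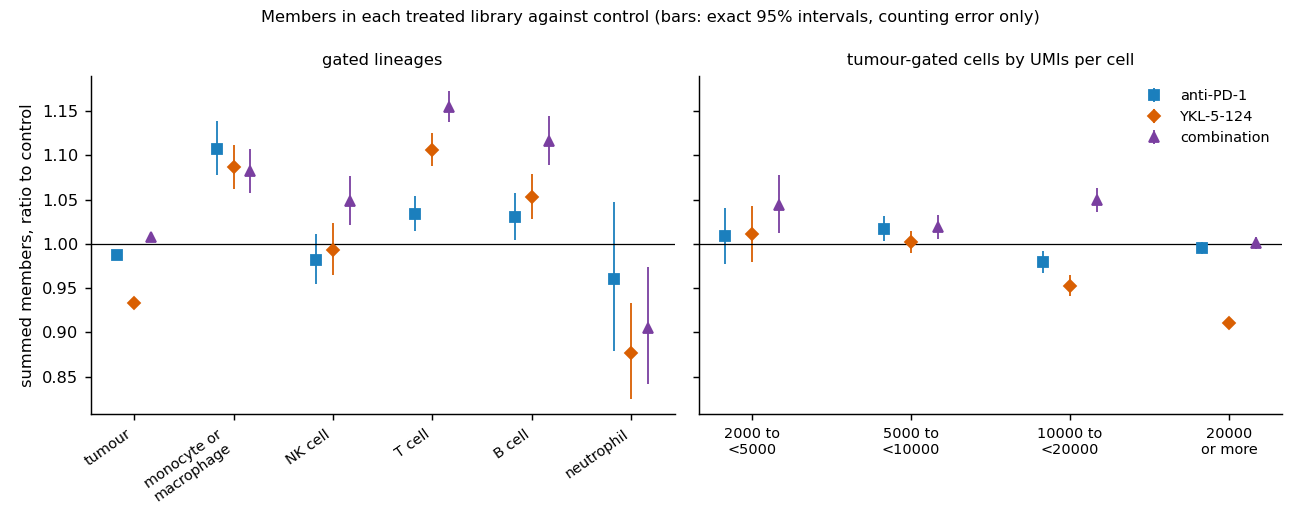
Ratio of the summed 40 genes in each treated library to control, by lineage and by depth of tumour barcodes, with exact 95% intervals for counting error. The tumour ratio with YKL-5-124 is 0.933 and lowest in the deepest range (0.911), whereas the T cell ratios are 1.03 to 1.15.

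B cells had ratios of 1.03 (1.00 to 1.06), 1.05 (1.03 to 1.08) and 1.12 (1.09 to 1.15) in the anti-PD-1, YKL-5-124 and combination libraries, where 6.93%, 5.74% and 7.43% of all genes passed 1.5-fold. In the combination 37 of the 40 genes lay above control, against 53.2% of all genes. That ratio was 1.07 without barcodes shared between libraries and 1.07 without Scrublet doublets. Sdhd was the 1 gene past 1.5-fold, from 54.0 CPM in control to 89.3 CPM with YKL-5-124 (ratio 1.65, 1.18 to 2.33) and 86.2 CPM in the combination (1.59, 1.12 to 2.29), with 66.9 CPM after anti-PD-1. Both intervals reach below 1.5. Sdhb, the iron-sulphur subunit of the same complex, had a ratio of 1.28 with YKL-5-124.

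In monocytes or macrophages the ratios were 1.11 (1.08 to 1.14), 1.09 (1.06 to 1.11) and 1.08 (1.06 to 1.11), and none of the 40 genes passed 1.5-fold (13.6%, 9.58% and 9.28% of all genes). With anti-PD-1 34 lay above control, against 52.2% of all genes, led by Ndufb2 (1.36, 1.03 to 1.81), Cox7a2 (1.27) and Ndufc1 (1.28). Ndufb9 was furthest with YKL-5-124 (1.28) and in the combination (1.30). C1qa, a macrophage gene, was at 983 CPM in control and at 675, 421 and 212 CPM, and Ly6c2, a monocyte gene, was at 655, 546, 1039 and 1063 CPM. Apoe was at 5197, 6147, 3144 and 2027 CPM and Ccr2 at 332, 358, 414 and 294 CPM, in the order of groups used above. These genes did not all shift alike, and their part in the ratios was not tested.

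NK cells had ratios of 0.982 (0.955 to 1.01), 0.994 (0.965 to 1.02) and 1.05 (1.02 to 1.08), of which the first and second intervals include 1. None of the 40 genes passed 1.5-fold (13%, 13.9% and 12.0% of all genes). Sdhb with anti-PD-1 was furthest, at 219 CPM against 320 CPM in control (ratio 0.685, 0.538 to 0.870).

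Neutrophils had ratios of 0.960 (0.879 to 1.05), 0.877 (0.825 to 0.934) and 0.905 (0.842 to 0.973). Of the 40 genes, 2 were past 1.5-fold above and 1 below with anti-PD-1, 4 and 2 with YKL-5-124, and 6 and 5 in the combination, where 48.1%, 43.4% and 43.3% of all genes were past it. Ndufb7 was past it in all 3 treated libraries, from 133 CPM in control to 336, 259 and 245 CPM. The control value rests on 88 cells, and the intervals of the ratio ran from 1.28 to 5.28, from 1.12 to 3.69 and from 0.992 to 3.67. Ndufb8 with anti-PD-1 (0.399) and Ndufa4 in the combination (0.465) were furthest below. Genes of immature neutrophils moved with these libraries: Ngp was at 61.4, 157, 23945 and 3062 CPM and Camp at 0, 89.7, 6913 and 993 CPM, in the order of groups used above. Their part in the ratios was not tested.

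Reads of some of the 40 genes may be shared with near-identical sequences. Of the last 300 transcript bases, 13 genes had 60-base stretches that also occur in other annotated genes, mostly pseudogenes outside the feature table. The share of such stretches was 68.5% for Atp5l, 64.2% for Cox7c, 55.4% for Atp5h, 44.0% for Ndufs5, 38.2% for Uqcrb, 32.5% for Cox6c and 31.2% for Atp5g1, so the levels of these 7 are uncertain. Genes within the feature table shared stretches with Atp5g1, Cox5b (15.7%), Ndufb2 (12.7%) and Ndufb8 (8.60%), so the levels of these are uncertain too. Cox7a2, Ndufa6, Ndufa5 and Sdhd were among the 27 genes with none.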

How the data were processed

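The deposited files are matrices of UMI counts as whole numbers, not normalized by the authors and made with bcl2fastq and Cell Ranger per the submitters' processing notes (software version 3.0.0 per the file headers). The notes name hg19, whereas the feature IDs are mouse Ensembl IDs, with the counting build not given in the sources used here.

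Barcodes were gated by having at least 3 UMIs from at least 2 markers of a list and at least 3 times the UMIs of every other list. Doublets were left in, with Scrublet (Scanpy 1.11.5) removal as an alternative. Summed counts were fitted in edgeR 4.0.16 (TMM, library as block), with DESeq2 1.42.0 as an alternative, in R 4.3.3. Pairing of lineages or depth ranges comes from their shared library. On simulated counts with a preset spread the lineage fit recovered 82% of 1.5-fold and 100% of 2-fold changes. The depth fit recovered 29% and 52%, so it can miss differences of these sizes. Treated libraries were compared by CPM ratios with exact conditional binomial intervals. Libraries had 17329001 to 22950622 UMIs, and intervals cover counting error only.

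Named were the 3 highest and 3 lowest members per fit, those past 1.5-fold (up to 10, some left out for length) or else the 4 furthest from control, up to 4 genes per other list and 6 regulators. The members and lists were chosen with earlier results of these data known. The promoter genes and cycling, granule and macrophage genes were picked after their values were seen. Locations used GENCODE M21.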

Additional observations from a re-analysis of the deposited data

Results flagged for a closer look

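Mitochondrial protein genes held 1.56% of NK cell UMIs in the combination library, and 1.40% to 1.41% in the other 3 libraries. Its gap to the others, as a share of the whole range, was above Dixon's critical value, which chance passes in about 1 of 20 groups, and 12 groups were checked.

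With YKL-5-124 against control the summed ratio of the 40 genes lay below 1 in tumour cells (0.933) and neutrophils (0.877) and above 1 in T cells (1.11), B cells (1.05) and monocytes or macrophages (1.09). Each rests on 1 library per group, and the difference between lineages was not tested. Some alternatives gave intervals that include 1. Thinned to 500 UMIs these were 0.971 to 1.05 in T cells and 0.980 to 1.11 in monocytes or macrophages, but 1.04 to 1.14 in B cells. Thinned without copies the tumour interval was 0.964 to 1.02. With totals lacking mitochondrial and ribosomal protein UMIs the B cell interval was 0.986 to 1.03.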

How the results depend on the processing

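The alternatives changed gates, filters, normalization, tool, depth and libraries one at a time, except those that left out copies together with thinning, a pooled shallow range or a library. Counts of tumour cells against the other lineages kept the larger number on the higher side. No replicate block gave the same counts except 31 lower in B cells and 25 higher in monocytes or macrophages. No paired analysis was possible because each group has 1 library, for treated against control. The cause was not tested where none is given.

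In deep against shallow tumour barcodes, 22 genes higher became 3 without barcodes shared between libraries, 4 without copies (2 to 4 with each library left out as well) and 4 in ranges of 2000 UMIs and more. By construction these 3 fits hold no barcode under 2000 UMIs. The fit without shared barcodes also lacks the range of 20000 UMIs and more, where 502 of 524 barcodes were shared. Each library was left there with fewer than the minimum of 20 barcodes per range. With barcodes under 2000 UMIs as 1 range, 22 were higher, and 21 without copies, where 6 lower became 0. The 6 lower became 1 with the gate of 5 UMIs and 5 times, 1 with no expression filter and 2 without the YKL-5-124 library. Without shared barcodes Cox5a turned to 0.18, Cox7c to -0.056, Ndufa1 to -0.067 and Atp5k to -0.15. The deepest and shallowest ranges are both missing from that fit, which leaves 3 ranges. Its contrast gave the middle range no weight and scaled down the difference between the outer 2. Its values are therefore smaller than a log2 difference of those ranges, and their size cannot be compared with the main fit. Without copies Cox5a turned to 0.28, Cox7c to -0.010, Atp5k to -0.16 and Ndufb9 to 0.017. In ranges of 2000 UMIs and more Cox5a turned to 0.21, Cox7c to -0.0016 and Atp5k to -0.13. Without copies and with 1 range under 2000 UMIs, Cox5a turned to 1.11, Ndufb9 to 0.58 and Ndufb10 to 0.57. These ranges were chosen after seeing the data.

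Members lower in T cells (12) became 7 in cells thinned to 500 UMIs, 3 with no expression filter and 6 to 9 with each library left out. Members lower in NK cells (8) became 3 when thinned, 3 with no scaling factors, 4 with no expression filter and 4 to 5 with each library left out. Members higher there (6) became 3 with the gate of 5 UMIs and 5 times, 1 with no expression filter and 1 to 5 with each library left out. With no scaling factors neutrophils had 37 lower, Atp5l -0.13 and Ndufb9 -0.21 there, and Cox4i1, Atp5e and Uqcrh 0.39, 0.43 and 0.47 in tumour cells. DESeq2 gave Atp5e 0.00012 and Uqcrh 0.017. In monocytes or macrophages Ndufs5 was 0.0052 with no expression filter and Ndufa5 -0.19 to 0.11 with each library left out (0.11 without YKL-5-124).

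Summed ratios to control in tumour cells (anti-PD-1, YKL-5-124, combination, and combination to YKL-5-124) were 0.998, 0.984, 1.03 and 1.05 without shared barcodes, 0.948, 0.969, 0.981 and 1.01 thinned to 500 UMIs, and 1.01, 0.993, 1.05 and 1.06 thinned without copies. With totals lacking mitochondrial and ribosomal protein UMIs the last 3 were 0.909, 0.992 and 1.09. By depth, the same totals gave 0.980 (YKL-5-124) and 1.00 (combination) at 5000 to under 10000 UMIs, 0.934 (YKL-5-124) at 10000 to under 20000, and 0.885 and 0.983 at 20000 and more.

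Thinned to 500 UMIs, the ratios to control were 1.01 (YKL-5-124) and 1.08 (combination) in T cells, 1.03 and 1.1 in NK cells, 1.09 (YKL-5-124) in B cells, and 1.02, 1.04 and 1.02 (anti-PD-1, YKL-5-124, combination) in monocytes or macrophages. With totals lacking mitochondrial and ribosomal protein UMIs they were 1.01, 1.02 and 1.07 in T cells (same order), 1.09 (combination) in NK cells and 1.01 (YKL-5-124) in B cells. Without T cells with a UMI of Mki67, Top2a or Birc5 they were 1.03 (YKL-5-124) and 1.08 (combination). In B cells the combination gave 1.07 without Scrublet doublets and 1.07 without shared barcodes.

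Pairs of a gene and a treatment past 1.5-fold, which thinning raises through lower counts, became 1 in T cells with the gate of 5 UMIs and 5 times, and 6, 10, 14 and 44 in thinned NK cells, B cells, monocytes or macrophages and neutrophils (0, 2, 0 and 20 in the report). The 2 in B cells became 1 at 5% or 20% mitochondrial UMIs, without doublets, without shared barcodes or at 1000 UMIs, and 0 with the gate of 5 UMIs and 5 times or at 100 CPM, where neutrophils had 13. Members per mitochondrial protein gene UMI became 0.746, 0.652 and 0.715 in T cells at 5% and 20% mitochondrial UMIs and with the gate of 5 UMIs and 5 times, and 0.486 in B cells at 5%. Neutrophils rest on 88 control and 84 anti-PD-1 cells, which limits their ratios.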

Other observations

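Barcodes over 10% mitochondrial UMIs were left out of the comparisons. Tumour-gated ones numbered 22, 6, 21 and 19 across the control, anti-PD-1, YKL-5-124 and combination libraries, and the 40 genes held 2.29%, 1.58%, 1.76% and 2.32% of their UMIs.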
